A study of Mus musculus with 2 samples.

Results

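Some microRNAs (miRNAs) that are abundant in neurons are each made from a pair of separate genes, and the 9 genes described here are those of miR-128, miR-138, miR-218 and miR-129. They are Mir128-1 and Mir128-2, Mir138-1 and Mir138-2, Mir218-1 and Mir218-2, and Mir129-1 and Mir129-2, with Mir129b, which is annotated on the strand opposite to Mir129-2. They were taken by gene name from the GENCODE M21 annotation by a rule that uses no measured value, though the rule was written with earlier results of these data known, and are 9 of the 2202 miRNA genes counted. The material was small RNA, selected below a size limit, from cerebral cortex of mice of strain B6NCrl. It is labelled as wild-type and as a female control, with no treatment named, while the fields for sex and age say that they were not collected. There is 1 group of 2 libraries, numbered as biological replicates 1 and 2. Each library has a tissue record of its own but both name a common donor record, so the spread between them may be technical, and every p-value below compares these libraries and not conditions.

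A miRNA gene is transcribed as a hairpin. Its 5′ arm (5p) and 3′ arm (3p) are cut out as short RNAs, and usually 1 of them is loaded into Argonaute and guides it to messenger RNAs that match its seed, the bases 2 to 8. When a pair of genes encodes the same guide, the copies can lie in different host genes and be transcribed separately while feeding a common pool. In the brain, miR-128 is known for restraining neuronal excitability, miR-138 for limiting dendritic spine size, miR-218 for its part in motor neurons and hippocampal circuits, and miR-129 for the downscaling of synapses.

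In each of the 4 pairs, 1 arm is identical at both loci, and its name carries no locus number. The shared arms are printed first because they are the reads that cannot be told apart. They come from the RefSeq miRNA table (GRCm38.p6, the assembly that mm10 names), with the seed in capitals. No seed is shared between the 4 guides.
miR-128-3p: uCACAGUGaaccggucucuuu
miR-138-5p: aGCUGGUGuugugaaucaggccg
miR-218-5p: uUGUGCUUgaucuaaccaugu
miR-129-5p: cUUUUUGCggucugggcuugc

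The identity of the loci hardly extends past these arms. For miR-128-3p the hairpins share 2 more bases before the arm and 0 after it, a run of 23 nt in all. The run is 24 nt for miR-138-5p, with 1 base before and 0 after, and 22 nt for miR-218-5p, with 0 before and 1 after. It is longest, 26 nt, for miR-129-5p, with 2 bases before and 3 after. The run and its flanks are shown for the miR-128 loci, the most abundant locus being among them, and for the miR-129 loci, where the run is longest, with the run in capitals.
Mir128-1: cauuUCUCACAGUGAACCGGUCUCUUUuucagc
Mir128-2: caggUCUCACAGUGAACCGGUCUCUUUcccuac
Mir129-1: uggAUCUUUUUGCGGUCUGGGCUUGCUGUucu
Mir129-2: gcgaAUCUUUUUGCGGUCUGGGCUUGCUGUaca

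The opposite arm differs between the loci. A read from it that covers a differing base can be assigned to 1 of them. So can a read that reaches past the shared run with bases that match 1 flank. The RefSeq table lists no opposite arm for Mir129-1. The opposite arms are printed against the matching stretch of the partner hairpin, without gaps, with the differing bases in capitals. Substitutions name the arm's base, its position from the arm's 5′ end, and the partner's base.
miR-128-1-5p: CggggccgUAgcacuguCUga
Mir128-2: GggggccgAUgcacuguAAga
miR-138-1-3p: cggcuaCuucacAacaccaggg
Mir138-2: cggcuaUuucacGacaccaggg
miR-218-1-3p: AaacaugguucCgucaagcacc
Mir218-2: GaacaugguucUgucaagcacc
miR-129-2-3p: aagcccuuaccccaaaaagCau
Mir129-1: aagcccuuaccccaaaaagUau

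The miR-128 5p arms are the most diverged, with 5 mismatches, and yet miR-128-1-5p and miR-128-2-5p have the same seed, GGGGCCG. miR-138-1-3p differs from the other locus by 2 bases (C7U and A13G). C7U lies inside its seed, and since miR-138-2-3p also starts further along the hairpin, the seeds of these arms differ (GGCUACU and CUAUUUC). miR-218-1-3p differs by 2 bases as well (A1G and C12U), both outside the seed, but miR-218-2-3p is annotated from a later start, which makes the seeds AACAUGG and AUGGUUC. miR-129-2-3p differs from the Mir129-1 hairpin by C20U alone and shares a run of 19 nt with it, so over this stretch the loci differ by a base near the 3′ end. Over all numbered pairs of the table with a locus detected, this arrangement was the rule: in 21 of 22 pairs exactly 1 arm was identical at both loci.

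These sequences set what the counts hold. Reads placed at several loci, 43.9% of all reads in replicate 1 and 47.9% in replicate 2, are in no gene's count, and a read with just the sequence of a shared arm matches both loci of its pair equally well. The tables give 1 count per gene and do not resolve arms, so the values below are levels of reads that could be placed at a locus, not levels of the guide miRNA. The part of its reads that can be placed may differ between the loci of a pair and was not measured. A ratio of their counts is therefore a ratio of placed reads and need not be that of the output of the genes. The depth was 4429633 sense counts over all genes in replicate 1 and 6985784 in replicate 2. Levels are given as CPM, counts scaled to the same sense total in both libraries, per gene and not per base, since each read is a short RNA within 1 arm or its flank. Detection of a gene meant reaching 2 CPM in each library.

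Of the 9 genes, 8 were detected, and all 8 lay above the median of the 438 detected genes, 57.8 CPM. Together the 9 held 2.25% of the sense counts in replicate 1 (95% Wilson interval 2.23 to 2.26) and 2.20% in replicate 2 (2.19 to 2.21), so their sum differed little between the libraries. Wilson and exact intervals here cover only the counting error of reads within a library. The reads carry no molecular identifiers, so repeated reads of a molecule cannot be set apart and the intervals may be too narrow.

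**Figure D1:**
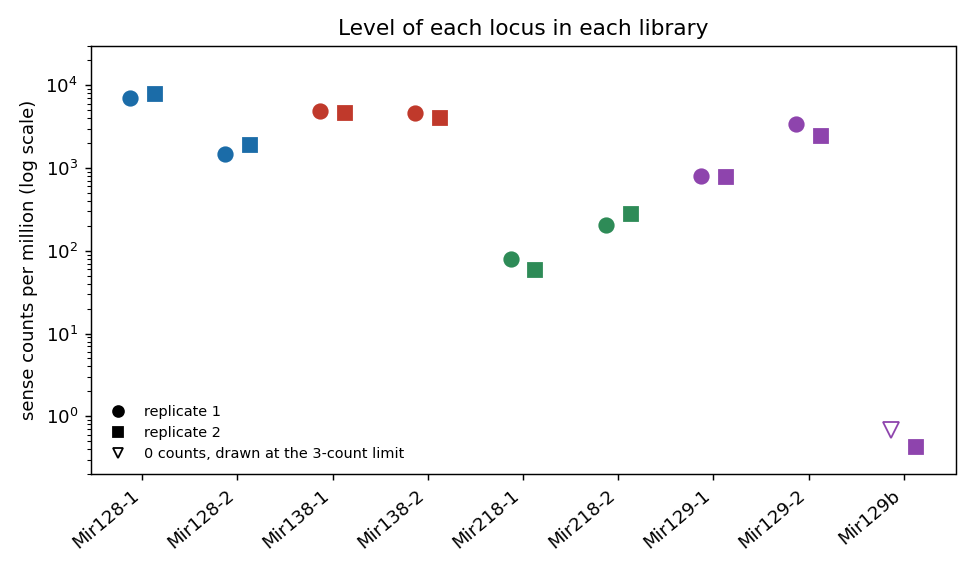
Sense level in CPM (log axis) of the 9 genes, with a circle for replicate 1 and a square for replicate 2 and colours for the pairs. Levels run from 7805 CPM for Mir128-1 to 59.1 CPM for Mir218-1, and Mir129b, with 0 and 3 counts, lies far below its neighbours.

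By mean level the order was Mir128-1, Mir138-1, Mir138-2, Mir129-2, Mir128-2, Mir129-1, Mir218-2, Mir218-1 and Mir129b. Between neighbours in this order the values of the libraries did not overlap. Mir138-1 and Mir138-2 came closest to it, and their means differed by less than the sum of their SDs. Mir128-1 ranked 30 and Mir138-1 ranked 42 among all 2202 genes, while Mir218-1 ranked 216.

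The miR-128 pair was uneven in favour of Mir128-1. Mir128-1 (ENSMUSG00000065520.2, chromosome 1, 128202361 to 128202430, mm10, plus strand) lies in an intron of R3hdm1, which encodes an R3H domain protein. It had 30914 counts in replicate 1 and 54527 in replicate 2, or 6979 and 7805 CPM. Mir128-2 (ENSMUSG00000065441.2, chromosome 9, 112118636 to 112118711, minus strand) lies in an intron of Arpp21, a gene for a cAMP-regulated phosphoprotein of neurons. Its counts were 6571 and 13196, or 1483 and 1889 CPM, below Mir128-1 in both libraries. Mir128-1 thus held 82.5% of the pair's counts in replicate 1 (exact 95% interval 82.1 to 82.9) and 80.5% in replicate 2 (80.2 to 80.8). The ratio of Mir128-1 to Mir128-2 was 4.42 ± 0.405 times (SD, n = 2), or 2.14 ± 0.13 on the log2 scale.

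The miR-138 pair was close to even. Mir138-1 (ENSMUSG00000065414.1, chromosome 9, 122682876 to 122682974, plus strand) lies in an exon of the transcribed pseudogene Gm47135. It had 21611 and 32444 counts, or 4879 and 4644 CPM. Mir138-2 (ENSMUSG00000065512.3, chromosome 8, 94324311 to 94324381, plus strand) lies in an exon of the long noncoding gene C78859. Its counts were 20446 and 28535, or 4616 and 4085 CPM. Mir138-1 held 51.4% of the pair's counts in replicate 1 (50.9 to 51.9) and 53.2% in replicate 2 (52.8 to 53.6), a share slightly above that of its partner in both libraries. The log2 ratio of Mir138-1 to Mir138-2 was 0.13 ± 0.074 (SD, n = 2), and it was -0.35 when counts were divided by the annotated length of the genes (99 and 71 nt), so that the direction depends on this choice.

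The miR-218 pair was the least abundant, and it favoured Mir218-2. Its loci lie in introns of related genes. Mir218-1 (ENSMUSG00000065603.1, chromosome 5, 48223942 to 48224051, plus strand) is in an intron of Slit2 and Mir218-2 (ENSMUSG00000065583.1, chromosome 11, 35616816 to 35616925, plus strand) in an intron of Slit3, genes for secreted axon guidance ligands. Mir218-1 had 349 and 413 counts, or 78.8 and 59.1 CPM. Mir218-2 had 897 and 1963 counts, or 202 and 281 CPM, above Mir218-1 in both libraries. Mir218-2 held 72.0% of the pair's counts in replicate 1 (69.4 to 74.5) and 82.6% in replicate 2 (81.0 to 84.1), which do not overlap. The log2 ratio of Mir218-1 to Mir218-2 was -1.36 in replicate 1 and -2.25 in replicate 2, with a mean of -1.80 ± 0.63 (SD, n = 2).

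By placed reads, the miR-129 pair favoured Mir129-2, the only locus of this pair with a listed opposite arm. Mir129-1 (ENSMUSG00000065469.1, chromosome 6, 29022619 to 29022691, plus strand) lies in an exon of the long noncoding gene Gm3294. It had 3551 and 5511 counts, or 802 and 789 CPM, nearly the same level in both libraries. Mir129-2 (ENSMUSG00000065511.1, chromosome 2, 94241364 to 94241453, minus strand) lies in an intron of Mir670hg, also a long noncoding gene. Its counts were 15161 and 17245, or 3423 and 2469 CPM, so that the higher locus was the one that varied more. Mir129-2 held 81.0% of the pair's counts in replicate 1 (80.5 to 81.6) and 75.8% in replicate 2 (75.2 to 76.3). The log2 ratio of Mir129-1 to Mir129-2 was -1.87 ± 0.32 (SD, n = 2).

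**Figure D2:**
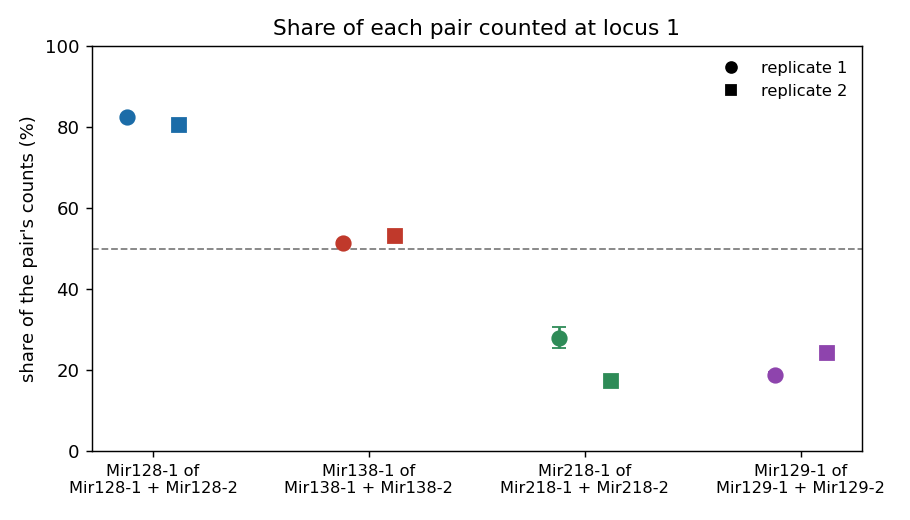
Share of each pair's sense counts that fell at locus 1, in percent, with exact 95% intervals for counting error (most are smaller than the symbols) and a dashed line at an even share. Mir128-1 holds 82.5% and 80.5% and Mir138-1 51.4% and 53.2% of their pairs, while Mir218-1 and Mir129-1 hold the smaller part in both libraries.

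Mir129b (ENSMUSG00000106336.1, chromosome 2, 94241378 to 94241442, plus strand) lies entirely within Mir129-2 on the opposite strand. All 65 nt of its hairpin are the reverse complement of part of the 90 nt of Mir129-2, so its annotated arms, printed here with the seed in capitals, mirror those of Mir129-2 and carry other seeds.
miR-129b-5p: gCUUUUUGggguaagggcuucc
miR-129b-3p: cAAGCCCAgaccgcaaaaagauu

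In the sense direction Mir129b had 0 counts in replicate 1, where a count of 0 allows up to 0.677 CPM, and 3 counts in replicate 2, or 0.429 CPM. On its opposite strand 15117 and 17219 counts were recorded. These are reads of Mir129-2: with its 44 and 26 counts in the either-strand column they add up to the sense counts of Mir129-2. Of the reads of Mir129-2, 99.7% in replicate 1 and 99.8% in replicate 2 therefore overlapped Mir129b and were set aside as ambiguous where strand was not used. With the either-strand column the log2 ratio of Mir129-1 to Mir129-2 was 7.01 and not -1.87, so its direction rests on the use of strand. No such loss touched the other pairs, whose opposite-strand counts were 0 apart from 1 read at Mir128-2.

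**Figure D3:**
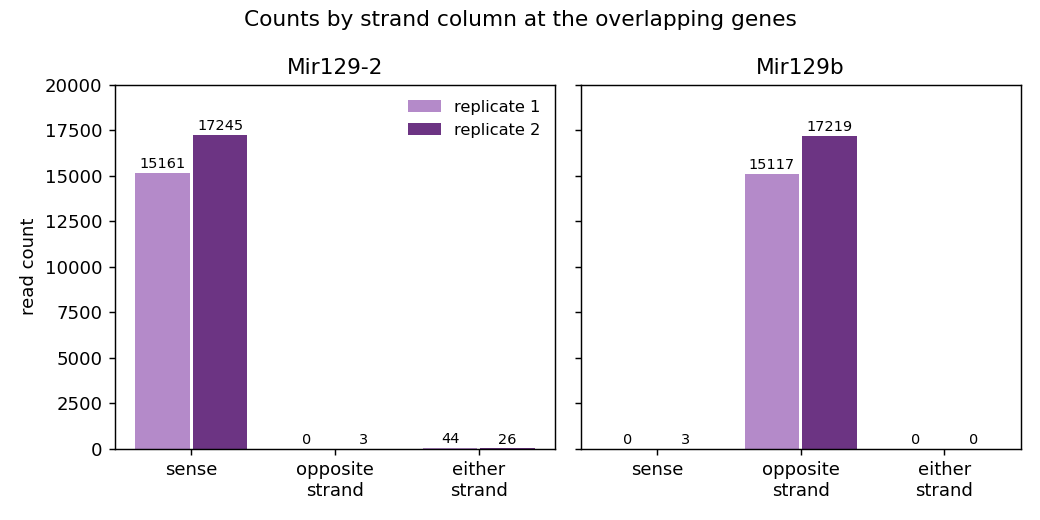
Read counts of Mir129-2 (left) and Mir129b (right) in the sense, opposite-strand and either-strand columns, with light bars for replicate 1 and dark bars for replicate 2. The sense counts of Mir129-2, 15161 and 17245, reappear almost whole as the opposite-strand counts of Mir129b, 15117 and 17219, and drop to 44 and 26 in the either-strand column.

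The unevenness of the pairs was set beside that of the other genes numbered -1 and -2. The table holds 43 such pairs, of which 22 had at least 1 locus detected. The Mir7 and Mir135a pairs among them are also of neuron-enriched miRNAs, so the 4 neuronal pairs are here only those described above. Loci at least 4 times apart in the same direction in both libraries were found in 40.9% of these pairs (9 of 22). Of the 4 neuronal pairs this was 1, the miR-128 pair, and 2 in either library alone, when the miR-129 pair (replicate 1) or the miR-218 pair (replicate 2) was added. In either library alone it was 11 of all these numbered pairs. The 9 include pairs with a locus that was not detected, while in the 4 neuronal pairs both loci were detected. An exact sign-flip permutation test over 2 libraries cannot go below p = 0.5, so no test was made of a locus ratio. Among the 20 pairs with both loci detected, ordered by the size of the mean log2 ratio, the miR-128, miR-129 and miR-218 pairs ranked 9, 10 and 11. The miR-138 pair came last, at rank 20, which makes it the most even pair by the mean over the libraries of sense counts per gene. In replicate 2 alone the Mir125b pair was closer to even, at a log2 ratio of -0.14 against 0.19 for the miR-138 pair. The median size of the log2 ratio over these 20 pairs was 1.84.

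**Figure D4:**
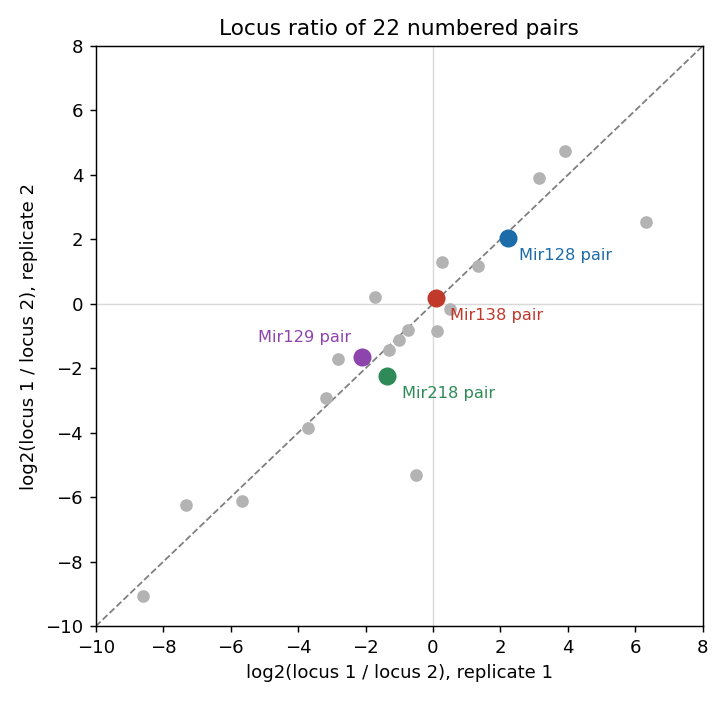
Log2 ratio of locus 1 to locus 2 in replicate 1 (horizontal) and replicate 2 (vertical) for the 22 numbered pairs with a locus detected, on sense counts with 0.5 added, with the 4 neuronal pairs in colour and the line of equal ratios dashed. The neuronal pairs lie between -2.25 and 2.23, with the miR-218 pair the furthest of them from the line. The miR-138 pair sits by the origin.

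Whether the balance of the loci was the same in both libraries was asked next, by Fisher's exact test on the counts of locus by library, which needs no library size. All 4 pairs shifted by more than counting error (adjusted p under 0.05 over 22 pairs), as did 68.2% of the numbered pairs. A call also required an odds ratio of at least 2, which 22.7% of pairs reached (5 of 22) and 0 of the 4 neuronal pairs (4 had an unadjusted p under 0.05). The Mir7 pair, also of a neuron-enriched miRNA, was among the 5. Of the 4 neuronal pairs, the miR-218 pair moved the most. Its log2 ratio of Mir218-1 to Mir218-2 was lower in replicate 2 by an amount of -0.89 (Woolf 95% interval -1.12 to -0.65, Fisher's exact test, adjusted p = 7.45e-13), an odds ratio of 1.85 that passed a limit of 1.5. The miR-129 pair shifted by 0.45 toward Mir129-1 (0.38 to 0.52, Fisher's exact test, adjusted p = 5.26e-37). The miR-128 pair shifted by -0.19 (-0.23 to -0.14) and the miR-138 pair by 0.11 (0.07 to 0.14). Over the 22 pairs, some with few counts at a locus, the median size of the shift was 0.56.

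Each gene was then compared between the libraries by an exact two-sided binomial test on TMM-scaled counts, with Benjamini-Hochberg adjustment over all 438 detected genes. A call needed both an adjusted p below 0.05 and a difference of 2 times or more. Of all genes, 18.0% were called (79 of 438), and of the 8 detected neuronal genes 0 were, although all 8 had an adjusted p under 0.05 (8 also unadjusted), as did 63.9% of the 438 genes (280). With DESeq2 size factors 0 were called too. The median size of the log2 ratio was 0.29 over the 8 genes and 0.50 over all 438. The 8 lie above the median level, while the 438 include genes with few counts. Genes of like level were not compared, for these medians or for the shares called.

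The ratio between libraries was largest for Mir218-2, at a log2 ratio of replicate 2 to replicate 1 of 0.60 (exact interval 0.48 to 0.71), and it was -0.29 (-0.50 to -0.08) for its partner Mir218-1. For the miR-128 pair both loci were higher in replicate 2, Mir128-2 by 0.47 (0.43 to 0.52) and Mir128-1 by 0.29 (0.27 to 0.31). Mir129-2 was lower in replicate 2, at -0.35 (-0.38 to -0.31). Mir129-1 (0.10), Mir138-1 (0.054) and Mir138-2 (-0.051) lay near 0. The scaling moved all of these together: the median over detected genes of this log2 ratio was -0.035 after TMM scaling but -0.16 by library totals, where Mir138-1 (-0.071) and Mir129-1 (-0.023) changed direction.

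**Figure D5:**
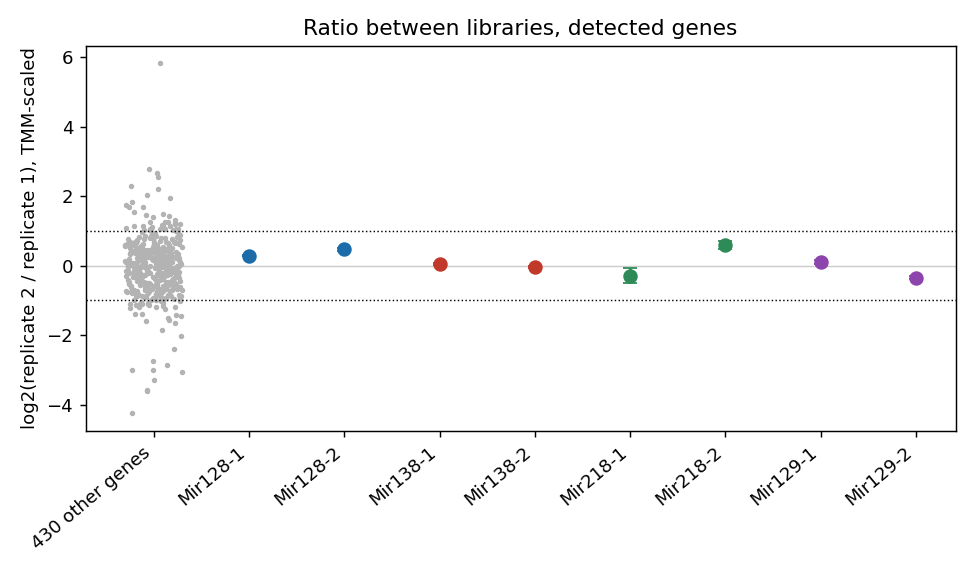
Log2 ratio of replicate 2 to replicate 1 after TMM scaling, for 430 other detected genes (grey points) and for the 8 detected neuronal genes with exact 95% intervals. Dotted lines mark a ratio of 2 in either direction, and all 8 genes lie between them, from -0.35 for Mir129-2 to 0.60 for Mir218-2.

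Base composition varied with the ratio between libraries. Across the 373 detected genes with a hairpin in the RefSeq table, the GC content of the hairpin and the log2 ratio of replicate 2 to replicate 1 had a Spearman correlation of -0.46, given as a description over genes that share both libraries. Within each neuronal pair, locus 2 has the higher GC content. It is 54.5% at Mir218-2 and 45.5% at Mir218-1, 53.3% at Mir129-2 and 47.9% at Mir129-1, and 57.7% at Mir138-2 and 54.5% at Mir138-1. Mir128-2, at 56.6%, is likewise above Mir128-1. The share of locus 2 was higher in replicate 2 for the miR-218 and miR-128 pairs and lower for the miR-129 and miR-138 pairs. The part of GC content in these shifts was not tested.

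Outside the pairs, 24 other neuron-enriched miRNA genes were matched, of which 20 were detected. They held 26.0% of the counts in replicate 1 and 31.1% in replicate 2, most of it from Mir139 and Mir132. Of the 20, Mir135a-2, Mir9-3 and Mir9-1 were the 3 with a call toward replicate 2, while Mir7-2 and Mir153 were the 2 with a call toward replicate 1. Over all 438 genes these counts were 41 and 38, and the median log2 ratio of the 20 was 0.33. The 9 genes listed as neuron markers are all among these 24, and 5 of the 9 were detected. The 9 held 5.71% and 7.31% of the counts. Of the 5, 2 were called higher in replicate 2 (Mir9-1 and Mir9-3, already named) and 0 higher in replicate 1. The numbered genes of miR-124, a defining neuronal miRNA, had 3 to 16 counts each (Mir124a-1, Mir124a-2 and Mir124a-3) and were not detected. Reads placed at several loci enter no gene's count, so low counts at these genes do not give the level of the miRNA. Sharing of arms among the miR-124 loci was not examined.

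Markers of other cells were detected too, and calls between the libraries fell in 2 of the 6 lists of such cells, with 0 in the glial, oligodendrocyte, microglia and vascular lists. Glial miRNAs, 6 of 6 detected, held 4.63% of the counts in replicate 1 and 4.86% in replicate 2, and 3 of 3 oligodendrocyte genes held 0.711% and 0.785%. For 5 of 5 microglia and leukocyte genes the shares were 0.135% and 0.194%, and for 3 of 3 vascular genes 0.429% and 0.543%. The 6 epithelial genes, all detected and led by Mir200c, held 1.28% in replicate 1 and 0.199% in replicate 2, and all 6 were called higher in replicate 1. The 5 choroid plexus and ependymal genes, led by Mir204, held 0.117% and 0.247%, and 4 were called higher in replicate 2. Their part in the values of the neuronal pairs was not tested, and in tissue RNA fewer cells of a type and less RNA per cell cannot be told apart.

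The genes closest in level to the higher locus of each pair, by Euclidean distance of log2(CPM + 1) over the 2 libraries, were Mir383 for Mir128-1, Mir154 for Mir138-1, Mir369 for Mir218-2 and Mir361 for Mir129-2. Mir383 had 6451 and 6959 CPM, a distance of 0.20 from Mir128-1, and Mir154 had 4974 and 4424 CPM, a distance of 0.075 from Mir138-1. Mir361 had 3627 and 2584 CPM. These are likenesses over 2 libraries only. The genes were picked on these same values, so a like direction between libraries comes from the choice.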

How the data were processed

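The authors deposited 1 table of raw read counts per library, with 3 columns (either strand, 1 strand, the other strand) per miRNA gene. Per the deposited readme text the tables use mm10 and annotation M21. The labels cite a different document on adapter trimming for each library, so trimming and replicate cannot be told apart. The aligner and the counter were not given in the sources used here. The 4 summary lines that name no gene (unmapped, 17.0% and 11.1% of reads; placed at several loci; outside genes, 3.67% and 2.81%; ambiguous, 0 with strand) were left out of totals. The sense column is the stranded column with the larger total.

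All 2202 identifiers matched GENCODE M21. CPM uses all sense gene counts. TMM factors came from edgeR 4.0.16 on the detected genes, alternatives from DESeq2 1.42.0, exact tests from scipy 1.17.1. Locus ratios have 0.5 added to each count. Both tests were run on simulated counts with counting error only, no TMM scaling and no limit on the ratio. The simulation cannot say how often they call genes or pairs wrongly in these data. Members, lists and tests were chosen with earlier results of these data known. All 9 members were named; other genes were named by fixed rules (nearest in level, the 5 most uneven pairs, the highest of each list), except genes called in small counts, which were named after their values were seen. Alternatives were the either-strand column, other scalings, filters and limits, thinning of the deeper library, and leaving out each library. The division by gene length was added after the data were seen. No genome was used, so the placing of arms outside miRNA hairpins was not examined.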

Additional observations from a re-analysis of the deposited data

How the results depend on the processing

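With the either-strand column, the log2 ratio of Mir129-1 to Mir129-2 turned from -1.87 to 7.01, since the reads of Mir129-2 that overlap Mir129b are then ambiguous. The same column gave 2 neuronal pairs at least 4 times apart, against 8 of all numbered pairs. It gave 1 neuronal pair with a change of balance, against 4 of all. Between libraries it called 1 neuronal gene, Mir129-2 (log2 ratio -1.29, on the 44 and 26 counts left to it), against 71 of all detected genes. Detection was redone with this column, so the numbers of genes and pairs tested need not be 438 and 22. The summed share of the neuronal genes was 2.04% with this column. The share was also 2.04% of all uniquely placed reads. Per annotated base, Mir138-1 over Mir138-2 was -0.35. Looser limits gave 3 neuronal pairs and 14 of all pairs at a ratio of 2, 1 neuronal pair and 10 of all pairs with a change of balance at an odds ratio of 1.5, and 1 neuronal gene (Mir218-2) and 171 of all genes called between libraries at a ratio of 1.5. Without replicate 1 or without replicate 2 the neuronal pairs at least 4 times apart were 2 and 2. Over all numbered pairs they were 11 and 11. With library totals, Mir138-1 (-0.071) and Mir129-1 (-0.023) reversed between libraries. DESeq2 size factors, no filter on low counts, 5 added counts and thinning of the deeper library changed no call of a neuronal gene or pair and no direction. By the exact binomial test, the adjusted p of Mir138-2 was 0.239 with DESeq2 size factors. After thinning it was 0.0626 for Mir138-1 and 0.128 for Mir218-1, and with library totals 0.551 for Mir129-1. So not all 8 detected neuronal genes kept an adjusted p under 0.05 in these settings. With 2 libraries, leaving out 1 leaves a value with no replicate. The counts of Mir218-1 (349 and 413) were the lowest of the 8 detected neuronal genes.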

Other observations

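Some other numbered pairs were more uneven than the neuronal pairs. Among pairs with both loci detected, the largest size of the mean log2 ratio of locus 1 to locus 2 was that of the Mir219a pair, of an oligodendrocyte miRNA, at -8.84 ± 0.32 (SD, n = 2), with 50 and 71 counts at Mir219a-1 against 19759 and 38249 at Mir219a-2. The Mir181b pair followed at -5.89 ± 0.33, the Mir92 pair at 4.32 ± 0.59, the Mirlet7f pair at -3.78 ± 0.11 and the Mir181a pair at 3.52 ± 0.52. The Mir181a and Mir181b genes are neighbours in clusters, and the locus with more counts was Mir181a-1 for the one and Mir181b-2 for the other.

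The 5 pairs whose balance changed between libraries were those of Mir24, Mir26a, Mir3074, Mir7 and Mirlet7a, named after their values were seen. The call of the Mir3074 pair rests on few reads, as Mir3074-2 had 1 and 3 counts and was not detected. At Mir7, a neuronal and endocrine miRNA, Mir7-1 had 117 and 181 counts and Mir7-2 had 834 and 595, a shift of 1.11 in the log2 ratio (Woolf 95% interval 0.75 to 1.48). At Mir24 the higher locus changed, from Mir24-2 (380 counts against 116) in replicate 1 to Mir24-1 (565 against 488) in replicate 2.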
